A study of Mus musculus with 29 samples.

Results

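Integrins are surface receptors made of 1 alpha and 1 beta chain, and 9 genes of adhesion were followed here in mouse CD4 T cells: 8 integrin chains (Itgae, Itgb7, Itgb3, Itgb1, Itgb2, Itgal, Itga4 and Itga6) and Cdh1, which encodes E-cadherin. They were taken by their symbols, and all 9 were found among the 54532 genes listed in the cell-type experiment and among the 55421 listed in the Smad experiment. The chains pair in set ways on T cells. Itgae (CD103) pairs with Itgb7 and binds E-cadherin on epithelium, and TGF-beta is a known inducer of Itgae. Itga4 pairs with Itgb7 in the gut-homing receptor for MAdCAM-1 and with Itgb1 in the receptor for VCAM-1. Itga6 pairs with Itgb1 and binds laminin, Itgal pairs with Itgb2 as LFA-1 and binds ICAMs, and Itgb3 pairs with Itgav as a receptor for vitronectin and fibronectin.

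The study set out to look at genes of lipid synthesis in regulatory T (Treg) cells and at control by Smad2 and Smad3, which carry the TGF-beta signal to the nucleus. All cells were C57BL/6 splenic CD4 T cells, and the labels give neither age nor sex. Naive cells, Th0 cells and Treg cells made up the cell-type experiment, with 3 libraries in each group. Th0 cells had 5 days of culture with 15 ng/ml IL-2, and Treg cells the same with 10 ng/ml human TGF-beta added. In the Smad experiment all 4 groups, with 2 libraries in each, were Treg cultures of that recipe: cells with no guide named (control) and cells labelled sgSmad2, sgSmad3 or sgSmad2/3, the usual shorthand for guide RNAs to Smad2, Smad3 or both. TGF-beta was thus present in every Smad group. No group of that experiment was labelled with a guide to another target. In comparisons with the control, carrying any guide and carrying a Smad guide therefore cannot be told apart. These are Treg cells made in culture, not taken from tissue, and the labels do not say whether libraries came from separate animals or cultures, so the p values rest on the spread among these libraries alone, which may be technical.

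Levels are in reads per 1000000 counted reads (CPM) from tags at the 3' end of each transcript. Libraries held 797612 to 1551478 reads in the cell-type experiment and 1294583 to 1602297 in the Smad experiment, so 1 read was worth 0.624 to 1.25 CPM. Changes are log2 differences of CPM + 1 with the standard error (SE), and adjusted p values are from limma over all genes tested, with a threshold of 0.05. In the CD4 T cell check, the 6 markers summed to 2240 CPM or more in every cell-type library and none was at 0. The 10 dendritic and myeloid markers summed to 19.9 to 218 CPM in naive, 27.5 to 38.8 in Th0 and 17.2 to 27.1 in Treg libraries. The 6 B cell markers summed to 198 to 362, 97.5 to 111 and 101 to 114 CPM in the same order. The part of such cells in the comparisons with naive was not tested. Transcript of Foxp3, the Treg lineage factor, averaged 10.4 CPM over the Th0 libraries and 179 CPM over the Treg libraries. Naive libraries lay between these levels, with a mean of 87.8 CPM (82.8 to 91.7), so the naive group was not free of Foxp3. The part of cells that make Foxp3 in the naive values, those of Itgae among them, was not tested. In bulk RNA, fewer cells that make a transcript and less of it per cell cannot be told apart.

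Treg cells differed from Th0 cells most in the CD103 chain, in E-cadherin and in the beta 3 chain. Itgae and Cdh1 were almost silent in Th0 cells and present in every Treg library, Itgb3 was 5.55 times lower in Treg than in Th0 cells by its mean, and Itga6 was 1.41 times higher. Of the 9 genes, 4 passed the test, 3 higher and 1 lower, beside 5.44% of the 14165 genes tested (2.99% higher and 2.45% lower). That count over all genes was 770, and 503 without Treg replicate 2. The other 5 members did not pass.

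Itgae was at 28.0, 31.6 and 25.5 CPM in the Treg libraries, at 0, 0 and 1.22 in Th0, and at 2.51, 6.19 and 4.68 in naive cells. Every Treg library lay above every naive library, and every naive library above every Th0 library. The log2 change of Treg against Th0 was 4.49 (SE 0.48, adjusted p = 3.8e-06). The Th0 level rests on 1 read against 101 in Treg, a ratio of 76.8 per read of depth with a 95% counting interval of 13.5 to 3060, which covers counting error only. A count of 0 allows up to 3.18 and 3.33 CPM in those 2 Th0 libraries. Against naive cells, Treg was higher by 2.48 (SE 0.48, adjusted p = 0.00035) and Th0 lower by 2.00 (log2 change -2.00, adjusted p = 0.0023), so the 5 days of culture without TGF-beta and with it ended on opposite sides of the naive level.

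Its partner chain did not follow that pattern. Itgb7 was at 505, 489 and 494 CPM in naive, 207, 272 and 285 in Th0, and 297, 333 and 348 in Treg cells. The naive libraries were the highest and the Treg libraries lay just above the Th0 libraries, with no overlap. The Th0 level was below naive by -0.97 (SE 0.11, adjusted p = 6.2e-07) and the Treg level by -0.61 (SE 0.11, adjusted p = 0.00018). Treg exceeded Th0 by 0.37 (SE 0.11), which missed the threshold at an adjusted p of 0.060 in limma. It passed in 10 refits and missed in the others. The adjusted p ran from 0.0085, with edgeR on the reads, to 0.38.

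Cdh1 encodes the ligand of CD103, a cell-cell adhesion protein that binds its own kind on neighbouring cells. It was at 173, 157 and 119 CPM in Treg, 0, 2.22 and 0 in Th0, and 1.25, 3.72 and 1.17 in naive libraries. The Treg libraries stood far above all others, and the naive and Th0 values overlapped. Treg exceeded Th0 by 6.66 (SE 0.49, adjusted p = 4.9e-08) and naive by 5.71 (SE 0.49, adjusted p = 1.8e-08). In reads, 526 in Treg stood against 2 in Th0, a ratio of 200 with a 95% counting interval of 55.1 to 1660. Th0 and naive did not pass the test (-0.95, SE 0.49, adjusted p = 0.14). Epithelial cells also express Cdh1. In these data 7 of 8 epithelial markers, Epcam and the keratins Krt8, Krt18 and Krt19 among them, were at 0 in all Treg libraries, and the 8 summed to between 0 and 0.645 CPM there.

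Markers of other lymphocytes that carry CD103 were also measured. The 8 CD8, NK and gamma-delta markers summed to 157 to 196 CPM in Treg, 51.4 to 57.7 in Th0 and 53.8 to 75.2 in naive libraries. Tcrg-C2, a gamma chain constant gene whose reads can be shared with its paralogs, was the 1 marker of the 8 that passed, at 126.5 ± 7.27 CPM in Treg and 8.40 ± 3.46 in Th0 (SD, n = 3; log2 change 3.82, SE 0.42, adjusted p = 4.4e-06). Trdc, the delta chain constant gene, was at 7.96 and 4.49 CPM (adjusted p = 0.37), Cd8a at 2.19 and 1.09 (adjusted p = 0.74), and Klrb1c and Ncr1 were at 0 in every Treg library. The part of such cells in the Itgae and Cdh1 values was not tested.

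Itgb3 moved the other way. It was at 55.2, 47.1 and 51.4 CPM in naive, 63.6, 73.2 and 73.5 in Th0, and 19.4, 7.73 and 10.8 in Treg cells. All 3 Treg libraries lay below all naive and Th0 libraries. Treg was lower than Th0 by -2.47 (SE 0.25, adjusted p = 1.7e-06) and lower than naive by -2.03 (SE 0.25, adjusted p = 2.1e-06), while Th0 against naive did not pass (0.44, SE 0.25, adjusted p = 0.17). Itgb3 also marks platelets. Their markers Gp9, Gp1bb, Gp6 and Tubb1 were at 0 in every cell-type library, and the 8 of the list summed to 2.34 to 10.0 CPM in naive, 1.06 to 8.88 in Th0 and 1.96 to 3.23 in Treg libraries.

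**Figure D1:**
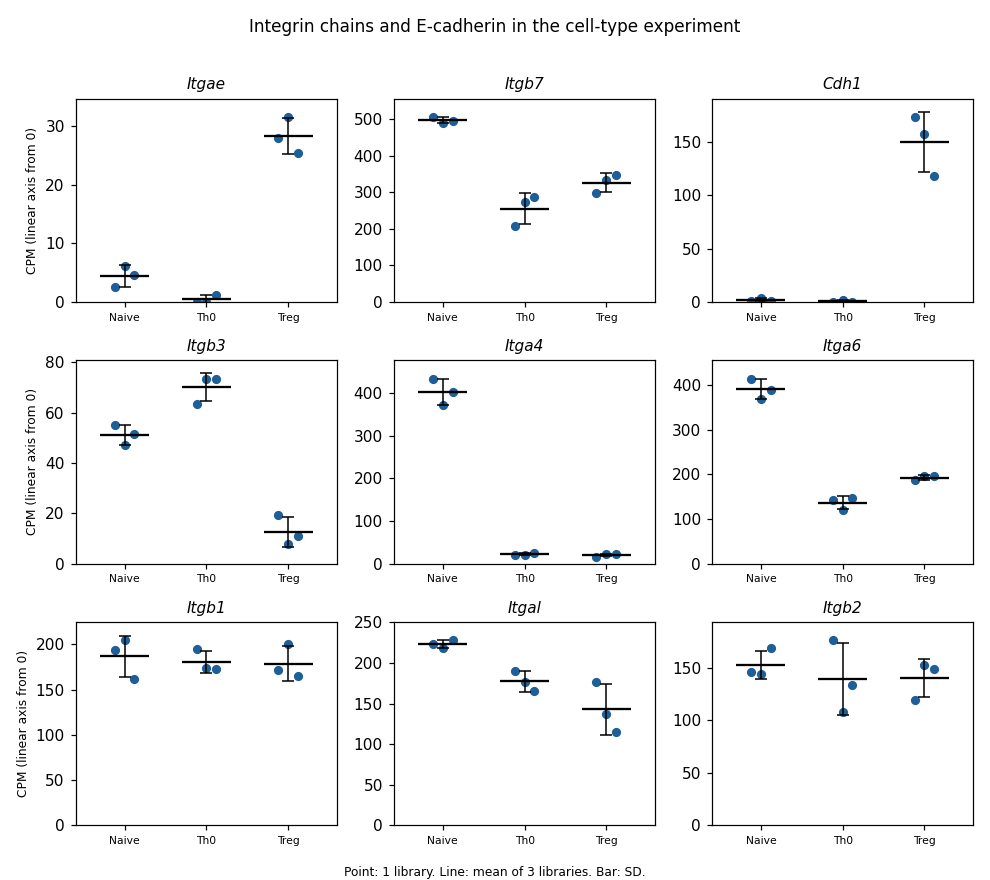
CPM of the 9 genes (linear axes from 0, 1 panel a gene) in naive, Th0 and Treg libraries; each point is 1 library, the line the mean of 3 and the bar the SD. Itgae and Cdh1 are high in Treg only, Itgb3 is low in Treg only, Itga4 is high in naive only, and Itgb1 and Itgb2 overlap across the groups.

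Against naive cells, 7 of the 9 genes passed in Treg (2 higher, 5 lower) and 5 of 9 in Th0 (all lower), beside 39.9% and 41.9% of all genes (23.3% higher and 16.5% lower for Treg, 24.3% and 17.6% for Th0). These 2 comparisons share the naive libraries.

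Itga4, the alpha chain of the VCAM-1 and MAdCAM-1 receptors, was at 434, 372 and 403 CPM in naive libraries. In Th0 libraries it was at 21.2, 21.1 and 25.7, and in Treg libraries at 16.2, 21.3 and 22.5. The cultured cells were thus far below naive with either cytokine mix, by -4.10 in Th0 (SE 0.17, adjusted p = 3.1e-13) and -4.28 in Treg (SE 0.17, adjusted p = 1.9e-13). Treg and Th0 overlapped (-0.18, SE 0.17, adjusted p = 0.70).

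Itga6, the laminin receptor chain, was at 414, 368 and 389 CPM in naive, 143, 121 and 146 in Th0, and 186, 195 and 196 in Treg cells. The 3 groups did not overlap, with Th0 the lowest. Th0 was below naive by -1.51 (SE 0.10, adjusted p = 4.5e-10) and Treg by -1.01 (SE 0.10, adjusted p = 1.4e-07). Treg exceeded Th0 by 0.50 (SE 0.10, adjusted p = 0.0045), a call that was lost, at 0.13, in the limma fit with no trend.

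Itgal, the LFA-1 alpha chain, was at 223, 218 and 228 CPM in naive, 191, 176 and 165 in Th0, and 177, 137 and 115 in Treg libraries. Treg was below naive by -0.66 (SE 0.13, adjusted p = 0.00041). Th0 against naive sat at the threshold (-0.33, SE 0.13, adjusted p = 0.049) and missed it in 10 refits, among them those without each of the naive and Th0 libraries and without Treg replicate 2. Treg against Th0 overlapped (-0.33, SE 0.13, adjusted p = 0.19; 0.025 without Treg replicate 1).

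Both common beta chains stayed within their spread. Itgb1 was at 187 ± 22.5 CPM in naive, 181 ± 12.4 in Th0 and 179 ± 19.1 in Treg cells (SD, n = 3), and its 3 log2 changes lay between -0.06 and -0.02. Itgb2 was at 152.5 ± 13.7, 139 ± 34.5 and 140.2 ± 18.0 CPM, with changes between -0.16 and 0.03 (SE 0.15). With SEs of 0.12 and 0.15 a change of that size could not have been told from none.

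The RefSeq promoter table for GRCm38.p6 held 3 of the 9 members, and all 3 are shown. Among them Itga4 fell most on culture, Itgb7 fell by less and Itgb1 did not pass in any comparison. The 250 bases before the listed start are printed along the gene's strand, 5′ to 3′. Capitals mark CAGAC, the short Smad box, and TGTGGT, a Runx core, on either strand (GTCTG and ACCACA are their reverse complements); the 2 motifs do not overlap each other.
Itga4, chr2:79255176-79255425, plus strand: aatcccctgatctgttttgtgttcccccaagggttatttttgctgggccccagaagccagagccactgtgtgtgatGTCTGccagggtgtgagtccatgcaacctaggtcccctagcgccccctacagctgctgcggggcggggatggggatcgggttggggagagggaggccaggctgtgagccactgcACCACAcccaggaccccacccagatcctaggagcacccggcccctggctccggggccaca
Itgb7, chr15:102231936-102232185, minus strand: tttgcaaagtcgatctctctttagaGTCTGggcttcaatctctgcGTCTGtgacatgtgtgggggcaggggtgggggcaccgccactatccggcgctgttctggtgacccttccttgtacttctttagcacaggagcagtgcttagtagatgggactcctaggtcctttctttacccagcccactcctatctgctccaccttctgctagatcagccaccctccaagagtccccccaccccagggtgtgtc
Itgb1, chr8:128685404-128685653, plus strand: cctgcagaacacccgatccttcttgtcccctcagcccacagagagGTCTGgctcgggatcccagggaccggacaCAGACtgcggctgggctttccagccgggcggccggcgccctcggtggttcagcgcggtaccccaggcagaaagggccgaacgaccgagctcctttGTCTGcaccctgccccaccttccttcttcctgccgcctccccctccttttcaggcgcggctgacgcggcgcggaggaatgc
The window of Itga4 held 1 CAGAC and 1 TGTGGT, that of Itgb7 held 2 CAGAC and that of Itgb1 held 3. Of 32851 RefSeq promoters of this length, 42.2% held CAGAC at least once and 11.7% at 2 or more places, and 14.1% held TGTGGT, so such letters are common. The gene bodies lie at chr11:73090505-73147449 (Itgae), chr11:104608000-104670476 (Itgb3) and chr8:106603350-106670247 (Cdh1) on that build, all protein coding. The start listed for Itgb7 lies inside its gene span, chr15:102215994-102233405.

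The integrin chains outside the 9 genes were read from a list of 19, of which 10 passed the filter on low values. In Treg against Th0, 3 of the 10 fell and none rose, beside 2.45% lower and 2.99% higher among all genes. The median log2 change of the 10 was 0.065 beside -0.008 over all genes. Itga7, a laminin receptor chain that pairs with Itgb1, was at 57.2, 72.1 and 57.6 CPM in Th0, 14.0, 17.4 and 10.8 in Treg, and 15.0, 9.91 and 8.18 in naive libraries. It was thus high in Th0 cells alone of the 3 groups, with no overlap, and fell by 2.09 from Th0 to Treg (SE 0.28, adjusted p = 5.3e-05). Itgb5, another partner of Itgav, was at 7.16 ± 0.725 CPM in Th0 and 1.12 ± 0.158 in Treg (SD, n = 3, log2 change -1.95, adjusted p = 0.012). Itga2, a collagen receptor chain, was at 8.35 ± 2.74 in Th0 and 1.73 ± 1.62 CPM in Treg (-1.97, adjusted p = 0.035). The Treg libraries were at 1.08, 1.29 and 0.980 CPM for Itgb5 and 0, 3.22 and 1.96 for Itga2. There 1 read was worth 1.08, 0.645 and 0.980 CPM, so both Treg levels rest on few reads. Itgav itself was at 37.5 ± 6.61 CPM in Treg and 31.1 ± 11.6 in Th0 and did not pass (0.30, SE 0.26, adjusted p = 0.68). Itgb8, which pairs with Itgav to release active TGF-beta, was at 0 in all Th0 and Treg libraries.

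Of 33 genes that regulate integrin activation or tie integrins to actin, 30 were tested. In Treg against Th0, 5 of them rose and 1 fell, beside 2.99% and 2.45% of all genes, with a median log2 change of 0.129. Vasp, an actin-filament elongation factor, was at 286, 295 and 287 CPM in Treg and 182, 213 and 206 in Th0 (0.53, SE 0.10, adjusted p = 0.0014). Zyx, a focal adhesion protein, was at 39.6 ± 1.18 against 23.2 ± 5.40 CPM (0.77, adjusted p = 0.035). Rasgrp2, the exchange factor that loads Rap1, Rassf5, a Rap1 effector that binds LFA-1, and Sipa1, a GTPase activator that switches Rap1 off, rose by 0.50, 0.35 and 0.46. Rasgrp1, an exchange factor for Ras, fell from 263 ± 30.0 to 161 ± 23.8 CPM (-0.71, adjusted p = 0.00066). Rapgef1, another Rap1 exchange factor (103 against 130.5 CPM), and Apbb1ip, a Rap1 effector (157 against 195 CPM), were lower in Treg by their means and did not pass. Against naive cells, 8 of the 30 were higher and 14 lower in Treg, beside 23.3% and 16.5% of all genes, and 4 were higher and 13 lower in Th0, beside 24.3% and 17.6%; no difference from all genes was tested.

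Of 18 integrin ligand genes 7 were tested. Thy1, a surface glycoprotein that can bind beta 3 integrins, was the one that passed in Treg against Th0, beside 5.44% of all genes. It was at 908, 971 and 790.5 CPM in Treg and 560.5, 555 and 535 in Th0 libraries (0.69, SE 0.12, adjusted p = 0.0012). Against naive cells, 4 of the 7 were higher and 1 was lower in both Treg and Th0, beside the shares of all genes called there (39.9% and 41.9%).

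None of 9 cadherin and catenin genes passed in Treg against Th0, though Cdh1 did. Ctnnb1 (beta-catenin) was at 238 ± 13.1 and 231 ± 13.3 CPM (0.04, SE 0.11), and Ctnna1 (alpha-catenin), which links cadherins to actin, at 48.5 ± 14.1 and 31.2 ± 12.8 (0.65, SE 0.33, adjusted p = 0.36). Against naive cells 6 of the 9 were higher and 1 was lower in Treg, and 5 were higher and 1 was lower in Th0, beside the same shares. Of the 5 tested repressors of cadherin genes none passed in Treg against Th0. Zeb1, a zinc-finger repressor of Cdh1, was at 117 ± 17.8 CPM in Treg and 83.7 ± 12.9 in Th0 (0.48, SE 0.15, adjusted p = 0.070; 0.047 with genes kept at 3 CPM or more).

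**Figure D2:**
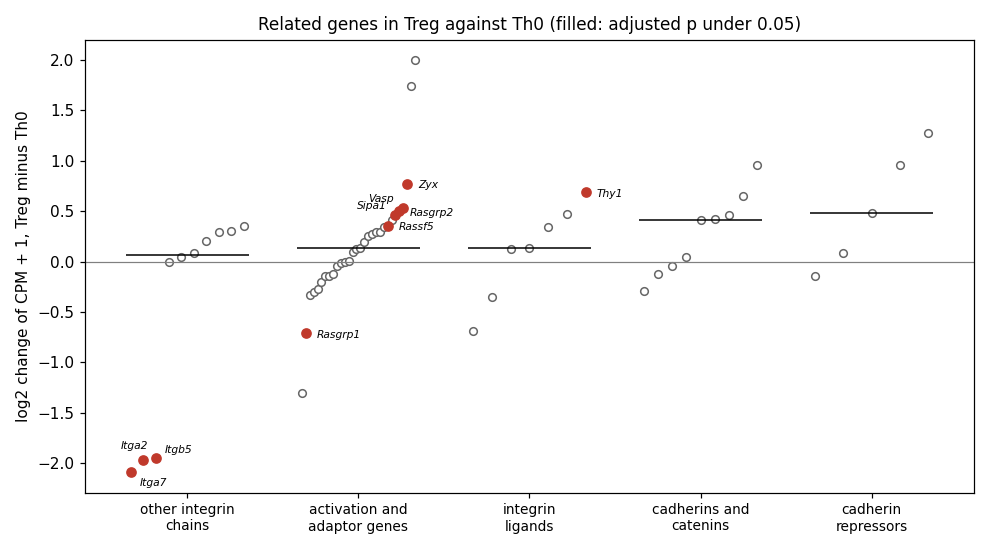
Log2 change of CPM + 1, Treg minus Th0, for tested genes of 5 lists; each point is 1 gene, filled where the adjusted p is under 0.05, and the line is the list's median. The 3 filled integrin chains lie near -2, and no cadherin, catenin or repressor gene is filled.

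The genes whose levels ran most like each of the 2 Treg-high members over the 9 cell-type libraries were found among 9262 genes with a group mean of at least 10 CPM. For Itgae they were Diaph2 (Pearson r = 0.974), Golm1 (0.974), Ldlrad4 (0.961), Furin (0.955) and Smyd3 (0.950). All 5 had their lowest mean in Th0 and their highest in Treg, the order of Itgae itself, which picking them by likeness to Itgae favours. Furin was at 38.5 ± 4.70 CPM in naive, 19.5 ± 2.44 in Th0 and 84.4 ± 19.6 in Treg cells (SD, n = 3). For Cdh1 they were Tcrg-C4 (0.984), Nlrc3 (0.983), Vasp (0.983), Ctsw (0.976) and Mtus1 (0.975). These are descriptions over 9 libraries in 3 groups, and libraries of a group share their culture condition.

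The Smad experiment asked how the members stood in Treg cultures carrying guides. The targeted transcripts were read first. Smad2 was at 37 and 29 CPM in control, 12 and 24 in sgSmad2, 25 and 30 in sgSmad3 and 13 and 18 in sgSmad2/3 libraries. Both groups with a Smad2 guide lay below the control. Smad3 was at 30 and 34 CPM in control, 44 and 56 in sgSmad2, 26 and 25 in sgSmad3 and 41 and 37 in sgSmad2/3 libraries, so the library group with both guides lay above the control. A tag at the 3' end counts edited transcripts as well, and where the guides cut is not given, so these values are a weak check of the labels.

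No gene of 18347 passed in any of the 6 comparisons fitted as planned (0% of genes), so no member did: each guide group against control, the Smad3 guide averaged over the Smad2 guide, the Smad2 guide averaged over the Smad3 guide, and the gap between sgSmad2/3 and the added changes of both single guides (the departure). At an unadjusted p under 0.05 limma counted 1006, 1842, 1795, 2355, 1268 and 1051 genes. Since these values were rounded to whole CPM by the authors, many low genes hold nothing but 0, 1 and 2. A fit of the 11950 genes kept at 3 CPM or more in 2 libraries was therefore added after the data had been seen. It called 1 gene for sgSmad2 (0.00837%), 10 for sgSmad3 (0.0837%), 54 for sgSmad2/3 (0.452%), 100 for the Smad3 guide averaged (0.837%), 9 for the Smad2 guide averaged (0.0753%) and 0 for the departure (0%; 370 at an unadjusted p under 0.05). Adjusted p values below are given first as planned and then from the added fit. The 2 fits give the same log2 changes, and all 3 guide groups are compared with the same 2 control libraries.

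Itgb3 and Itgae showed the clearest values. Itgb3, the chain that was low in Treg, was at 14 and 15 CPM in control, 34 and 56 in sgSmad2, 44 and 42 in sgSmad3, and 88 and 106 in sgSmad2/3 libraries. Every guide library lay above both control libraries, and both sgSmad2/3 libraries above all single-guide libraries. The log2 change was 1.53 for sgSmad2 (SE 0.24; adjusted p = 0.12, then 0.076), 1.51 for sgSmad3 (SE 0.24; 0.13, then 0.029) and 2.66 for sgSmad2/3 (SE 0.24; 0.10, then 9.5e-05). Over all 8 libraries the Smad3 guide went with 1.32 more (SE 0.17; 0.18, then 0.0016) and the Smad2 guide with 1.34 more (SE 0.17; 0.28, then 0.0053). The value with both guides differed from the sum of the single guides by -0.38 (SE 0.35; adjusted p = 0.98), which did not pass. The planned fit thus made no call for Itgb3. Besides the added fit, planned refits called it for sgSmad2/3 with no trend (adjusted p = 0.034) and, with only the 2 groups compared, for sgSmad2/3 (0.018) and sgSmad3 (0.020). Over the refits of sgSmad2/3 that leave out 1 library the change lay between 2.52 and 2.79.

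Platelets and myeloid cells also carry Itgb3. The platelet list summed to 2 to 5 CPM in control and 3 in both sgSmad2/3 libraries, with Gp9, Gp1bb, Gp6, Ppbp, Treml1 and Tubb1 at 0 in all 8 libraries. The dendritic and myeloid list of 10 summed to 11 and 19 CPM in control and 39 and 40 in sgSmad2/3. Of these sums H2-Ab1 gave 10 and 15 and then 33 and 29, and Cd74 gave 0 and 2 and then 2 and 1. Clec9a, Flt3, Itgam, Itgax and Xcr1 were at 0 in both groups. Csf1r was at 0 in control but not in every sgSmad2/3 library. The part of such cells in the Itgb3 result was not tested.

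Itgae was at 39 and 36 CPM in control, 37 and 58 in sgSmad2, 18 and 26 in sgSmad3, and 16 and 16 in sgSmad2/3 libraries. All 4 libraries with a Smad3 guide lay below all 4 without one, whereas sgSmad2 overlapped the control. Averaged over the Smad2 guide, the Smad3 guide went with a change of -1.12 (SE 0.19, adjusted p = 0.18, then 0.013). Only the added fit called Itgae in that comparison, and no planned refit did. Averaged over the Smad3 guide, the Smad2 guide went with -0.06 (SE 0.19; 1.0 in both). Single comparisons with the control gave 0.30 for sgSmad2 (SE 0.27; 0.93, then 1.0), -0.76 for sgSmad3 (SE 0.27; 0.44, then 0.37) and -1.18 for sgSmad2/3 (SE 0.27; 0.27, then 0.083). Even the 16 CPM of the sgSmad2/3 libraries stood above the Th0 values of the other experiment, which was normalised on its own and is set beside it with no test.

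Itgb7, the partner of Itgae, was at 328 and 338 CPM in control, 358 and 426 in sgSmad2, 328 and 426 in sgSmad3, and 387 and 406 in sgSmad2/3 libraries. No guide group lay below the control, and the changes of 0.17 to 0.25 (SE 0.15) did not pass in either fit.

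Cdh1 was at 217 and 116 CPM in control, 146 and 85 in sgSmad2, 217 and 70 in sgSmad3, and 68 and 39 in sgSmad2/3 libraries. In all 4 groups the library numbered 1 was the higher, and both sgSmad2/3 libraries lay below all 6 others. The log2 change of sgSmad2/3 was -1.60 (SE 0.65; adjusted p = 0.51, then 0.12), and with the replicate number as a block it was the same at an adjusted p of 0.22. The single guides gave -0.51 and -0.36 (SE 0.65; 0.97 and 0.87). The 8 epithelial markers summed to 26 CPM in sgSmad3 replicate 1, of which Epcam gave 11 and Krt19 9. In the other 7 libraries they summed to 0 to 4 CPM. Cdh1 was at 217 CPM both in sgSmad3 replicate 1 and in control replicate 1. Without sgSmad3 replicate 1 the Cdh1 change of sgSmad3 was -1.17, and without sgSmad3 replicate 2 it was 0.45. Its sign thus rests on which library is kept.

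**Figure D3:**
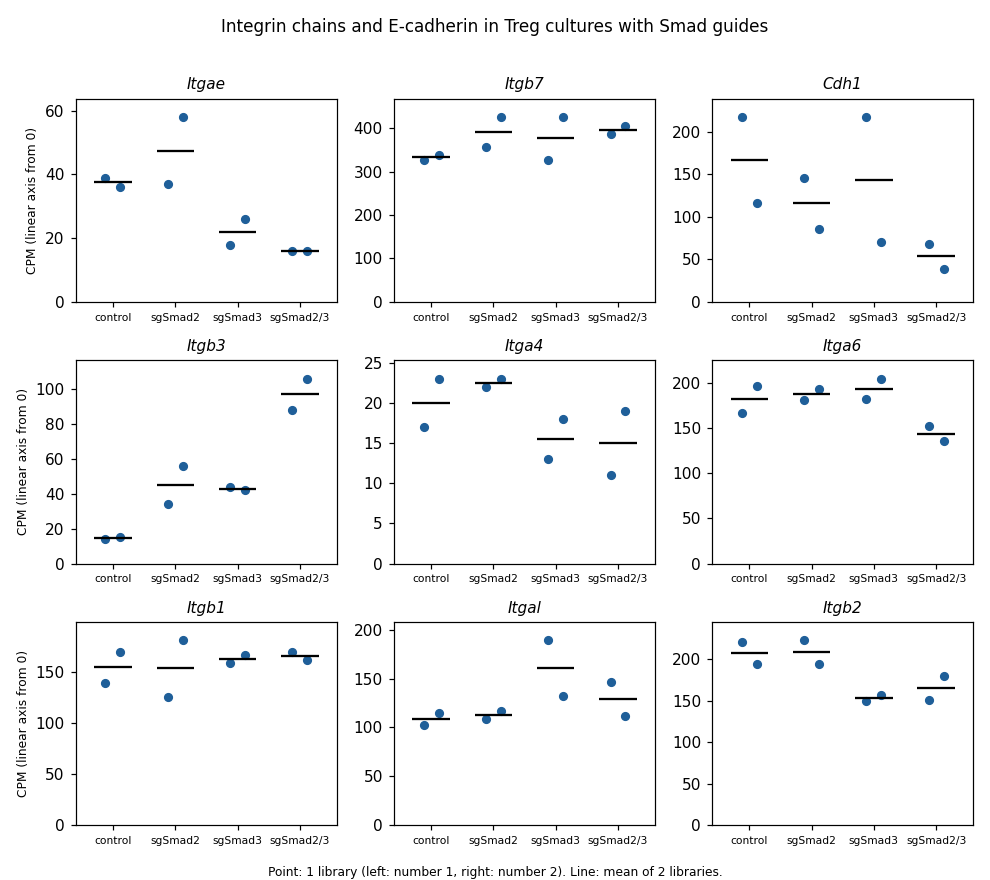
CPM of the 9 genes (linear axes from 0, 1 panel a gene) in the 4 groups of Treg cultures of the Smad experiment; each point is 1 library and the line the mean of 2. Itgb3 rises from 14 and 15 in control to 88 and 106 in sgSmad2/3, and Itgae is at 26 or less in the 4 libraries with a Smad3 guide.

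The other 5 members showed small differences that passed in neither fit. Itgb2 was at 221 and 195 CPM in control, 223 and 195 in sgSmad2, 150 and 157 in sgSmad3, and 151 and 180 in sgSmad2/3 libraries. The 4 libraries with a Smad3 guide lay below the 4 without it (-0.39, SE 0.09, adjusted p = 0.21). Its partner Itgal was at 102 and 115 CPM in control, 109 and 117 in sgSmad2, 189 and 132 in sgSmad3, and 146 and 112 in sgSmad2/3 libraries. Both sgSmad3 libraries were above the control for Itgal and below it for Itgb2. Itga6 was at 167 and 197 in control, 181 and 194 in sgSmad2, 183 and 205 in sgSmad3, and 152 and 136 in sgSmad2/3, the lowest pair (-0.33, SE 0.12, adjusted p = 0.47). Itga4 stayed between 11 and 23 CPM and Itgb1 between 126 and 181 over all 8 libraries, with the groups overlapping.

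**Figure D4:**
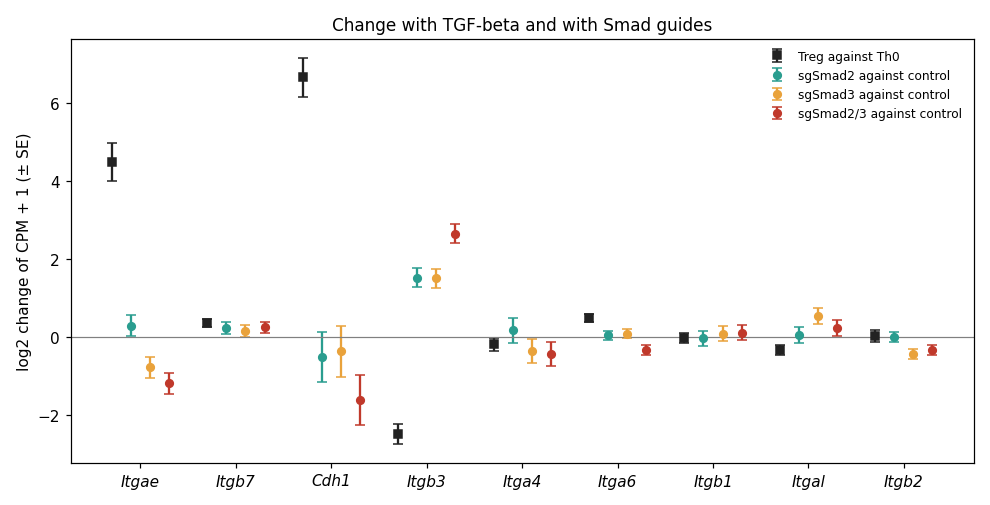
Log2 change of CPM + 1 with its SE for the 9 genes, in Treg against Th0 (squares) and in each guide group against control (circles). Itgae and Cdh1 lie above 0 for Treg and below it for sgSmad2/3, Itgb3 lies below 0 for Treg and above it for all 3 guide groups, and the other 6 genes lie within 1 of 0.

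Related genes were counted in the added fit, since none passed as planned. That fit called 0.452% of all genes for sgSmad2/3 and 0.837% for the Smad3 guide averaged. Of 5 other integrin chains tested, Itga7 alone passed. It was at 16 and 17 CPM in control, 31 and 36 in sgSmad2, 31 and 39 in sgSmad3, and 45 and 57 in sgSmad2/3 libraries, so like Itgb3 it was higher in every guide library than in control and highest with both guides. Its change was 1.56 for sgSmad2/3 (SE 0.25, adjusted p = 0.0066) and 0.81 for the Smad3 guide averaged (SE 0.18, adjusted p = 0.037). Of 30 activation and adaptor genes, Fermt1 (kindlin-1, an integrin co-activator) and Src (a tyrosine kinase that acts downstream of integrins) were lower with the Smad3 guide averaged, by -2.12 (adjusted p = 0.011) and -2.12 (adjusted p = 0.015). Fermt1 was at 8 to 13 CPM in the 4 libraries without a Smad3 guide and at 1 to 4 in the 4 with one, and Src at 6 to 16 and at 0 to 4. Of 8 ligand genes, Col1a1, a collagen chain, passed for sgSmad2/3 (2.31, SE 0.44, adjusted p = 0.023). It was at 3 and 6 CPM in control, 20 and 12 in sgSmad2, 20 and 11 in sgSmad3, and 37 and 17 in sgSmad2/3. None of 8 cadherin and catenin genes or 5 repressors passed for any guide comparison.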

How the data were processed

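RNA of 17 libraries was read as 3' tags (QuantSeq FWD kit, per the labels). Per the submitters' processing notes the tools include STAR 2.7.9a and Subread 2.0.1, with build mm10. The annotation and how strand was used are not stated in those sources. Each experiment has 1 table, which the authors called TPM. Cell-type values as deposited proved to be CPM: 100% were whole multiples of 1 read (tolerance 0.01). Smad values as deposited were a score, since the authors had rounded CPM to whole numbers; an unnamed last line gave the worth of 1 read. As neither table holds TPM, tests were on log2(CPM + 1).

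Genes at 1 CPM or more in 3 libraries (cell-type) or 2 (Smad) were fitted with limma 3.58.1 in R 4.3.3, with a trend and all groups of a table together; p was adjusted by Benjamini and Hochberg. On recovered reads, edgeR 4.0.16 and DESeq2 1.42.0 were alternatives. On data simulated for these designs the Smad fit as planned recovered 2-fold changes poorly, and a minimum of 3 CPM, chosen among several minimums tried there, was added. The simulation gave every gene the same spread beyond counting error, which the real libraries need not share, so recovery in the real data is not known. Members and lists were chosen with earlier results of these data known. Named were the 9 members, list genes past the threshold in Treg against Th0 or a guide comparison (at most 6 a direction), the label checks Smad2, Smad3 and Foxp3, and the 5 genes most like Itgae and Cdh1. Itgav, Itgb8, Ctnnb1, Ctnna1, Zeb1, Rapgef1, Apbb1ip, Trdc, Cd8a, Tcrg-C1, Klrk1 and Cd8b1 were named as background after their values were seen. The 4 Acsbg1 and 8 ATAC libraries were not analysed here. Dates in 27 symbols were restored from the reference table. Replicates of a group differed beyond counting noise, and all were kept.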

Additional observations from a re-analysis of the deposited data

How the results depend on the processing

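In the cell-type experiment, 27 changes of members were refitted 540 times: 516 refits kept the side of the threshold, 11 lost a call, 13 gained one, and none turned a called change; 11 refits in 5 uncalled comparisons changed sign. In the Smad experiment, 54 changes gave 891 refits, of which 882 kept their side and 9 gained a call; 36 changed the sign of an uncalled value. Genes called in Treg against Th0 numbered 770, 453 with no trend and 503 to 883 leaving out 1 library, with edgeR 1066 and with DESeq2 582. The Smad counts of 0 for sgSmad2, sgSmad3 and sgSmad2/3 became 175, 158 and 164 with no trend. They became 444, 519 and 508 with only the 2 groups compared, and 1, 10 and 54 at a minimum of 3 CPM. The averaged Smad3 and Smad2 guides gave 100 and 9 at that minimum and 0 in every planned refit. The cause was not tested. With only the 2 groups compared, Itgae passed for sgSmad2/3 (adjusted p = 0.036) and Itgb3 for sgSmad2/3 (0.018) and sgSmad3 (0.020); with no trend Itgb3 passed for sgSmad2/3 (0.034). Deviations from the group means hardly correlated between libraries of the same replicate number in the cell-type experiment (0.00788 to 0.0252). In the Smad experiment the correlations were 0.00428 to 0.219, the highest for control with sgSmad2, so whether the numbers pair libraries there was not settled. With the replicate block 759 genes were called in Treg against Th0 and 0 in each guide comparison. Itgb7 then passed in Treg against Th0 (adjusted p = 0.041). No other member's call changed with the block. With 2 libraries a group and whole-number values, the Smad fit as planned can miss changes of 2-fold.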
